A study of Drosophila melanogaster with 3 samples.

Results

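The chemoreceptor genes of the fruit fly Drosophila melanogaster were taken as all protein-coding genes whose symbol is Or, Gr or Ir followed by digits and a lower-case letter, and 179 of 13945 protein-coding genes met that rule. They comprised 59 odorant receptor (Or), 60 gustatory receptor (Gr) and 60 ionotropic receptor (Ir) genes. Each gene was scored by the binding sites of Deadpan (Dpn) near its annotated start sites. Dpn was mapped by chromatin immunoprecipitation sequencing (ChIP-seq) in whole embryos of 0 to 16 h, males and females pooled, from the dpn-GFP strain. That line stably carries Dpn with GFP at its C-terminus, and the fusion was precipitated with an antibody to GFP. There were 3 biological replicates of this 1 group, all with the transgene, and no other genotype, stage or treatment. Every statement below is therefore a description of where peaks lay, and no test between groups could be made. The DNA that drives the fusion is not given in the sources used here.

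Or, Gr and Ir proteins are mostly ligand-binding receptors of smell and taste neurons. Or proteins form ion channels with the shared coreceptor Orco, Gr proteins detect sugars, bitter compounds and carbon dioxide, and Ir proteins are relatives of glutamate receptors that need coreceptors such as Ir8a, Ir25a or Ir76b. A sensory neuron transcribes only some of these genes, and does so late, when it differentiates. Dpn, a repressor with a basic helix-loop-helix domain and a relative of Hairy, is known for keeping neuroblasts, the neural stem cells, in their proliferating state. Related proteins bind the DNA words CACGTG and CACGCG. The general E-box is CANNTG and the N-box is CACNAG.

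The deposited data were ranked peak lists, and 1 set of 6253 peaks had been thresholded for reproducibility. The relaxed lists, which hold background by design, had 30000 peaks for the pooled reads and 30000, 22475 and 30000 peaks for replicates 1, 2 and 3. Rank 1 is the peak with the highest signal value of a list, and a summit is the position of highest signal within a peak. To set replicates side by side, the first 6253 peaks of each were also used, here called equal depth. Read depth was not given, and peaks do not tell whether a protein sits on few cells' chromatin often or on many cells' chromatin rarely, so fewer cells and less binding per cell cannot be told apart.

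Summits of Dpn-GFP were sparse at receptor genes. Within 1 kb of a start site, 5 of the 179 receptor genes (2.79%) had a thresholded summit, while 31.3% of all protein-coding genes did. The 5 were Or88a, Or9a, Ir60e, Gr32a and Gr63a. By family that was 2 of 59 Or genes (3.39%), 2 of 60 Gr genes (3.33%) and 1 of 60 Ir genes (1.67%). Per length of DNA, the 1 kb windows of the receptor genes held 13.7 thresholded summits per Mb, those of all protein-coding genes held 135 per Mb, and the chromosome arms as a whole held 46.7 per Mb. In the 0.467 Mb of receptor gene bodies there was no thresholded summit. Of that length 0.267 Mb is coding sequence, where such summits were rare for all genes, at 1.18 per Mb.

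Where the 5 summits lay is shown by 4 of their sequences, given 5′ to 3′ on the plus strand of dm6 (RefSeq Release 6) and covering 50 bases either side of the summit. At Gr63a, bases that belong to an exon of Lamtor4 were left out, so that 95 bases remain. Capitals mark CANNTG and CACNAG words on either strand. The Or88a window is chr3R:14108704-14108804, the Or9a window is chrX:10460625-10460725, the Gr32a window is chr2L:11113290-11113390 and the Gr63a window is chr3L:3896805-3896899.
Or88a summit: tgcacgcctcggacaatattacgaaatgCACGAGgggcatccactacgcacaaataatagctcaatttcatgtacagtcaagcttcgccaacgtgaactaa
Or9a summit: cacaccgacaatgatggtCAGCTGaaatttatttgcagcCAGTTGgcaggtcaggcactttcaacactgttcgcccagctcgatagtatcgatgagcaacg
Gr32a summit: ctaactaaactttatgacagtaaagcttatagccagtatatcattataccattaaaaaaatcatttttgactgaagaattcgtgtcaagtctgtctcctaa
Gr63a summit: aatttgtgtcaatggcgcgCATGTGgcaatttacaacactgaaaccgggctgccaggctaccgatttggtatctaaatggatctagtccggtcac

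Those windows differ from each other. Or88a has 1 N-box and no E-box, Or9a has 2 E-boxes, Gr63a has 1 E-box, and the Gr32a window, with 29.7% G and C, has neither word. Across all thresholded summits, 35.6% have CANNTG and 10.3% have CACNAG within 50 bp on either strand. CACGTG and CACGCG were in none of the 5 windows, and they were in 0.800% and 1.18% of all thresholded windows. A match is a description of letters and not of a binding site.

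Or88a, a receptor of adult trichoid sensilla that detects odours of other flies, had the best-ranked summit. Its start is on the plus strand of 3R (FBgn0038203, 14109445 to 14110823), and the summit lay 691 bp upstream of it. The peak ranked 857 in the pooled list with a signal of 469, and it ranked 538, 833 and 1056 in replicates 1, 2 and 3. All 3 replicates thus placed it well inside their first 6253 peaks. The nearest protein-coding start was not that of Or88a but that of CG12402, 433 bp from the summit on the other side.

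Or9a, an odorant receptor gene on the minus strand of X (FBgn0030204, 10458186 to 10459676), had its summit 999 bp upstream, just inside the window. The peak ranked 1301 in the pooled list with a signal of 371, and 925, 2458 and 1171 in the 3 replicates. It lay 61 bp from the start of Neb-cGP. Ir60e, on the minus strand of 2R (FBgn0035019, 24529554 to 24531272), had a summit 259 bp upstream, of pooled rank 2279 and signal 265. Its replicate ranks were 1526, 3775 and 2143, and the start of CG13585 was 63 bp away. A weaker pooled summit of rank 7650 lay farther upstream, 1 bp from a different annotated start of CG13585.

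Gr32a, a taste receptor for bitter compounds and for a male cuticular hydrocarbon, had a summit 674 bp upstream. The gene is on the plus strand of 2L (FBgn0041246, 11114014 to 11115823). The peak ranked 2388 in the pooled list with a signal of 257, and 3091, 2260 and 2227 in the 3 replicates. Its nearest start, at 279 bp, was that of Idua, the gene of a lysosomal iduronidase.

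Gr63a makes the carbon dioxide receptor together with Gr21a. It is on the minus strand of 3L (FBgn0035468, 3894999 to 3896603), and its summit lay 252 bp upstream and 45 bp from the start of Lamtor4, a subunit of the lysosomal Ragulator complex. The peak ranked 4519 in the pooled list with a signal of 160. In replicates 1 and 3 it ranked 3612 and 4306, but in replicate 2 it ranked 8841 with a q-value of 0.124. It was the weakest of the 5 and the only one of them outside the first 6253 peaks of a replicate. Gr21a had no pooled summit within 1 kb and only a replicate 1 peak of rank 26100, and its nearest thresholded summit was 38526 bp away.

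All 5 loci had the same layout. The summit was upstream of the receptor, outside any exon, and between the receptor and a neighbour that is transcribed away from it from the other strand. In each case the neighbour's start was the nearer. Of the 5 receptor genes with a thresholded summit within 1 kb, 0 were the gene nearest to it, while 3192 of the 4369 protein-coding genes with such a summit (73.1%) were nearest to 1 of theirs. The median distance of the closest summit was 674 bp for the 5 receptors and 134 bp for all those genes. Whether the protein at these sites acts on the receptor, on the neighbour or on neither was not tested.

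**Figure D1:**
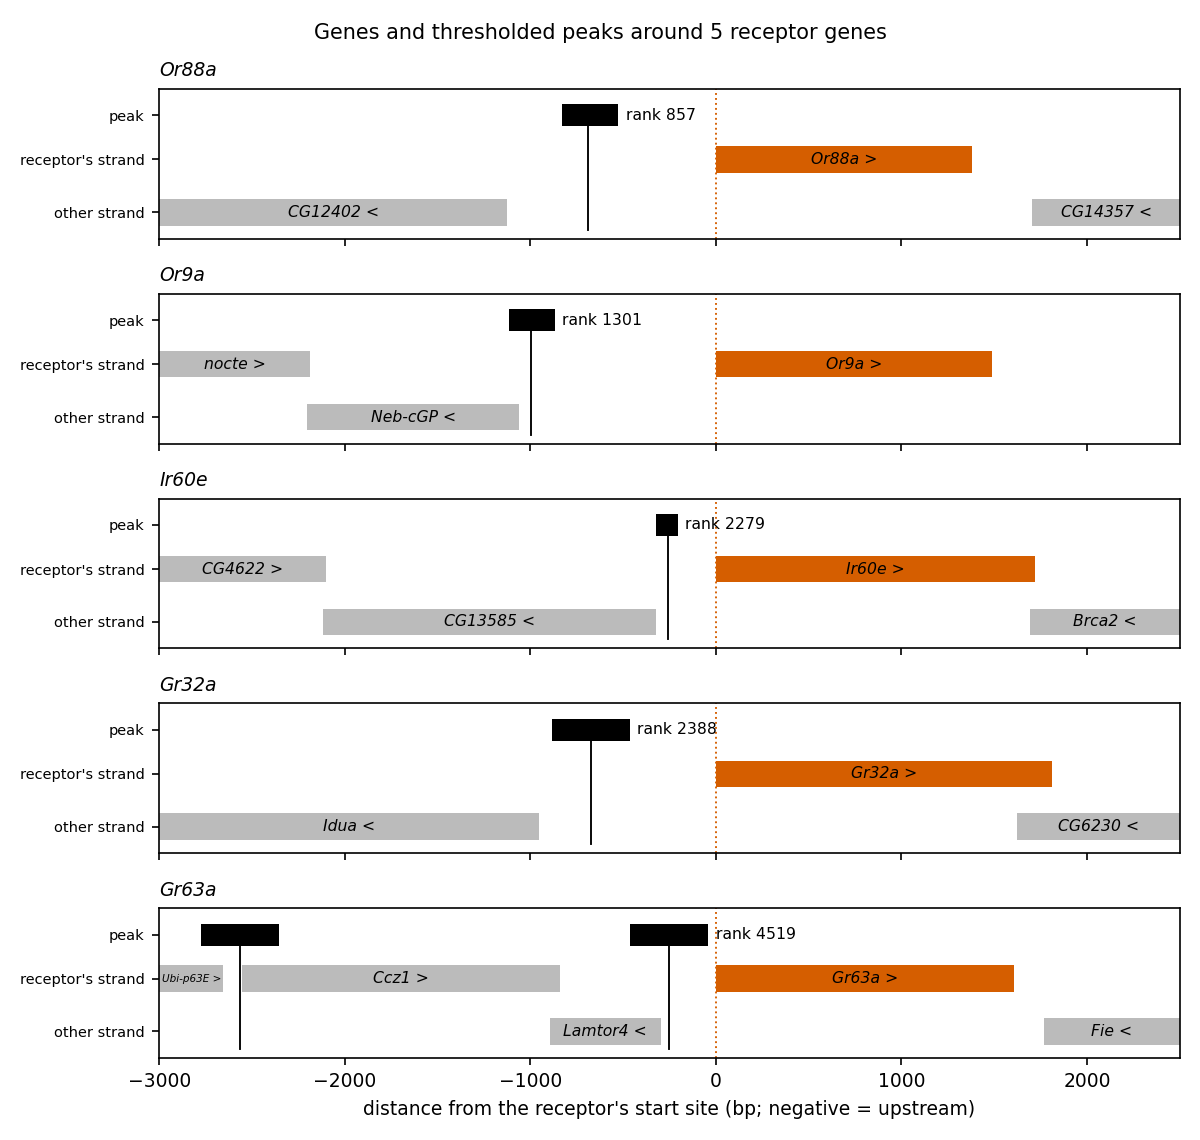
Maps of the 5 loci, with distance from the receptor's start site in bp on the horizontal axis and the receptor drawn in orange from left to right. Grey bars are other protein-coding genes, arrowheads give their direction, black bars are thresholded peaks and vertical lines their summits. In each map the summit of the peak at the receptor, of rank 857, 1301, 2279, 2388 or 4519, lies between the receptor and the start of a gene on the other strand. The peaks at Or9a, Ir60e and Gr63a extend across that start.

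Receptor genes differ from other genes in how close their neighbours outside the 3 families are. A start of a gene outside the 3 families lay within 1 kb for 23 of the 179 receptor genes (12.8%). Of all protein-coding genes, 42.7% had a start of another gene outside the families that near. Starts of other receptor genes were not counted as neighbours here. Among receptor genes with such a neighbour, 3 of 23 (13.0%) had a thresholded summit, beside 48.6% of all genes with a near neighbour. Without it the values were 2 of 156 (1.28%) and 18.5%. The share was therefore lower for receptor genes in both classes. Those 2 of 156 were Or88a and Or9a, whose nearest start outside the families was at 1124 and 1060 bp. Both lay just past the limit, so their class depends on the 1 kb cut. The split was chosen after the values were seen. None of the 79 receptor genes that lie within 5 kb of another receptor gene had a thresholded summit within 1 kb, and 5 of the 100 others did. With a share of 2.79% over all 179, few such genes fall to either class. Median distances to the nearest thresholded summit went the other way, at 11642 bp for the 79 and 15710.5 bp for the 100. Those 79 form 28 clusters, of which the sugar receptor cluster Gr64a to Gr64f is the largest with 6 genes.

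Counting by nearest start instead of by distance gave a different set of receptor genes. At any distance, 13 thresholded summits had a receptor gene as their nearest protein-coding start, and they belonged to 9 genes (5.03% of 179), beside 29.1% of all protein-coding genes. The 9 were Gr89a, Gr93a, Gr93d, Ir94d, Ir67b, Or67d, Ir94a, Or45b and Or33a. None of these 13 summits lay inside a protein-coding gene, and they were from 1397 to 64539 bp from the receptor. The strongest was at Gr89a, 1397 bp downstream of the start, with rank 734 and a signal of 502, and it overlapped peaks of rank 1342, 714 and 623 in replicates 1, 2 and 3. Cad89D, the next start, was 2140 bp from it. Gr93a had 2 such summits and Gr93d had 3, so that 5 of the 13 flanked the Gr93 genes at 2434 to 4161 bp upstream of either gene. Their ranks in the pooled list ran from 2230 to 4226, and 2 of those at Gr93d, at 2434 and 2647 bp, were overlapping peaks that met the same replicate peaks. Ir67b also had 2, at 2952 and 3693 bp.

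The count depended on the 1 kb limit, with 2 receptor genes within 500 bp and 11 within 2 kb, beside 27.7% and 36.9% of all genes. Or9a at 999 bp was the last inside it. Outside it came Gr39b at 1368 bp, where the summit was 153 bp from the start of CG8665, then Gr89a and Gr5a at 1397 bp each, Or46a at 1557 bp, Or85f at 1924 bp, and Ir94c at 1938 bp. The summit near Gr5a, which encodes a trehalose receptor, was closer to the start of Tre1, a receptor gene used by migrating germ cells.

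Thresholded summits were farther from receptor genes over the whole range of distances. The median distance from a start site to the nearest one was 13492 bp over the 179 receptor genes and 4525 bp over all protein-coding genes. Or genes had a median of 27686 bp, Gr genes 11258.5 bp and Ir genes 11104 bp. Within 5 kb there were 10.2% of Or genes, 25% of Gr genes and 21.7% of Ir genes, beside 52.1% of all genes. The farthest were Gr36a, Gr36b and Gr36c, neighbours on 2L, at 202461, 200307 and 198741 bp, and Ir20a at 103147 bp.

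**Figure D2:**
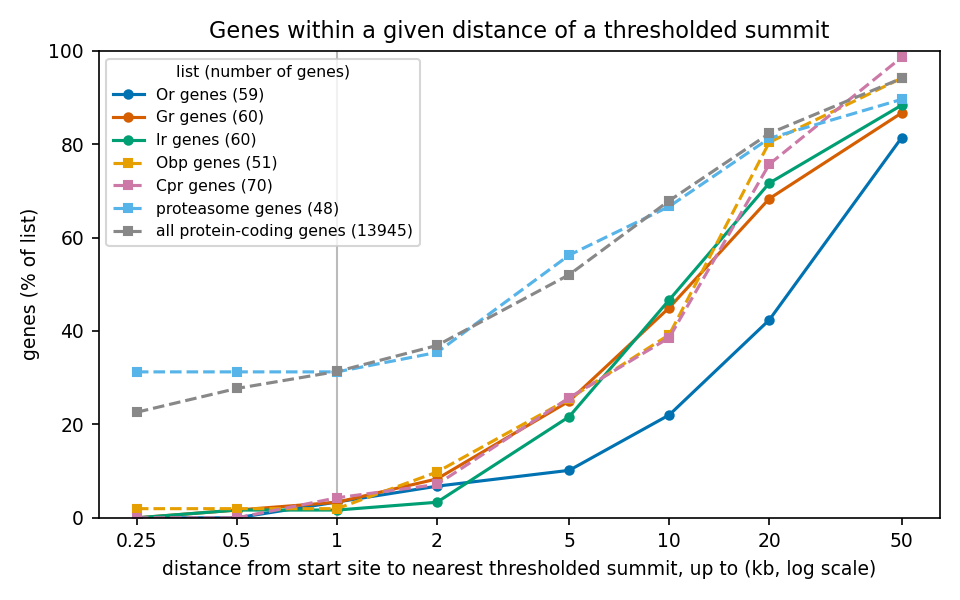
Percentage of each gene list (vertical axis) whose start site lies within a given distance of a thresholded summit (horizontal axis, kb, log scale). Solid lines with circles are the 3 receptor families and dashed lines with squares the other lists. At 1 kb the receptor families lie between 1.67% and 3.39% and all protein-coding genes at 31.3%, and the Or line stays lowest from 5 kb on.

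Other late or tissue-restricted families were also low. Among odorant-binding protein genes, which encode carriers of odorants in the lymph of sensilla, 1 of 51 (1.96%) had a thresholded summit within 1 kb, namely Obp99b. Among Cpr genes, which encode cuticle proteins, 3 of 70 (4.29%) did. Proteasome genes, taken by symbol as Prosalpha, Prosbeta, Rpn or Rpt with digits, had 15 of 48 (31.2%). How widely each of them is used was not examined. Median distances to the nearest thresholded summit were 11102 bp for the odorant-binding protein genes, 14099 bp for the Cpr genes and 3346.5 bp for the proteasome genes. A low share is thus not particular to the receptors, and no test between these lists was made.

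The replicates gave similar counts at equal depth. Within 1 kb of a start, replicate 1 had summits at 6 receptor genes, replicate 2 at 4 and replicate 3 at 5, a mean of 2.79% ± 0.559 (SD, n = 3). Over all protein-coding genes the shares were 31.2%, 29.1% and 31.7%. The sixth gene in replicate 1 was Gr64a, and Gr63a was missing from replicate 2. The highest receptor share of a replicate, 3.35%, was below the lowest share of all genes.

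**Figure D3:**
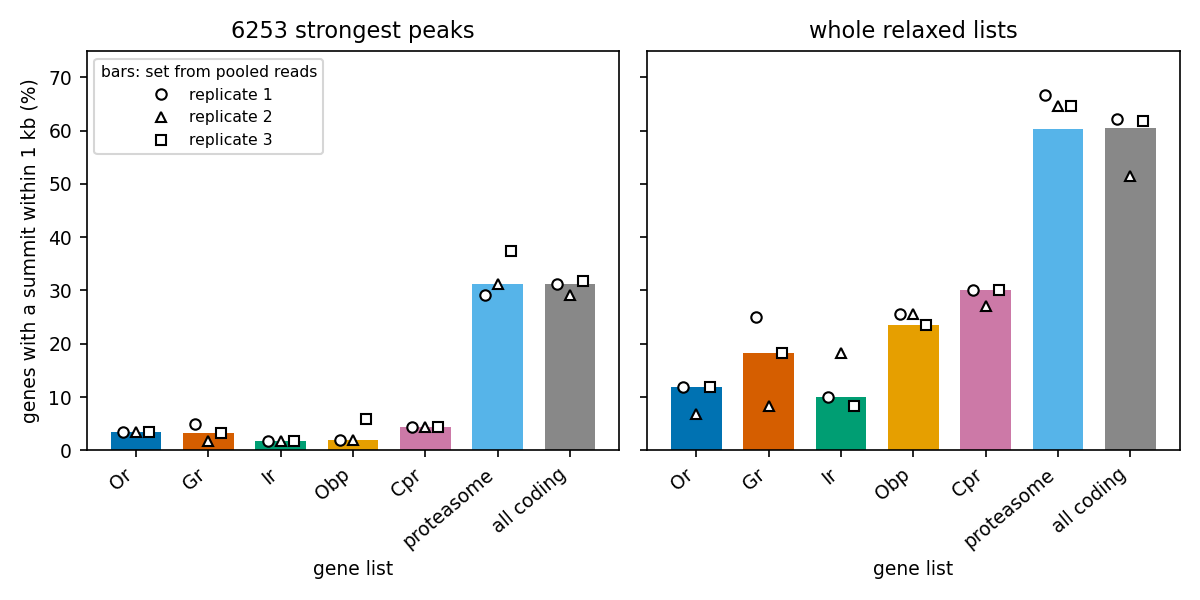
Percentage of genes with a summit within 1 kb of a start site (vertical axis) for 7 gene lists. Bars are the sets from pooled reads, the thresholded peaks on the left and the relaxed list on the right, and circles, triangles and squares are replicates 1, 2 and 3. Obp are odorant-binding protein and Cpr cuticle protein genes. On the left all receptor points lie at or below 5%, and on the right replicate 2 is lowest for Or and Gr genes and highest for Ir genes.

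The relaxed lists reached more receptor genes but with low ranks. In the pooled relaxed list 24 of 179 (13.4%) had a summit within 1 kb, beside 60.5% of all protein-coding genes. In replicates 1, 2 and 3 it was 28, 20 and 23 receptor genes, beside 62.2%, 51.4% and 61.8% of all genes. The median best pooled rank was 15935 for the 24 receptor genes and 5953 for all genes with a summit. It was 18580.5 for odorant-binding protein genes, 15937 for Cpr genes and 6195 for proteasome genes, so low ranks were not particular to the receptors. Of the 26 pooled summits at receptor genes, 15 (57.7%) ranked beyond 15000, which is near the share of the whole list that ranks there. Counted by gene and not by summit, 18.9% of all genes with a summit had their best one beyond that rank. A gene can have more than 1 summit, so those 2 shares are not in like units. In all 5 lists together, 133 of the 179 receptor genes had no summit within 1 kb. In the 3 relaxed replicate lists alone it was 134 of the 179, beside 3881 of the 13945 protein-coding genes.

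Few receptor genes had a summit in all 3 replicates. Of the 45 receptor genes with a summit in any relaxed replicate list, 24 (53.3%) had it in 1 replicate alone, 16 in 2 and 5 (11.1%) in all 3. For all protein-coding genes the shares in 1 replicate alone and in all 3 were 17.9% and 60.8%. They were 35% and 25% for odorant-binding protein genes, 54.3% and 28.6% for Cpr genes, and 13.5% and 67.6% for proteasome genes. Low agreement was thus not particular to the receptors. Of the 26 pooled summits at receptor genes, 14 met a peak of 2 replicates and 7 (26.9%) of all 3, beside 45.2% of all pooled peaks in all 3. The 7 include 2 overlapping peaks at Or88a that met the same replicate peaks, and the 14 include 2 such peaks at Ir31a. The 5 genes with a summit in all 3 replicates were the 5 with a thresholded summit. Replicate 1 alone accounted for 12 of the 24, replicate 2 alone for 9 and replicate 3 alone for 3. For all protein-coding genes those counts were 695, 545 and 557 of 1797. By family, the relaxed counts of replicates 1, 2 and 3 were 7, 4 and 7 Or genes, 15, 5 and 11 Gr genes, and 6, 11 and 5 Ir genes. Replicate 2, whose relaxed list is the shortest, was thus lowest for Or and Gr genes and highest for Ir genes.

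After the 5 leading genes, the next 3 pooled ranks were also at other genes' starts. Gr64a, a sugar receptor, had a summit of pooled rank 7928 at 109 bp from the start of CG11594, with ranks of 5700 and 9022 in replicates 1 and 3 and no summit in replicate 2. Gr97a had rank 9943 at 7 bp from the start of CG5521, with ranks of 24878 and 7182 in replicates 1 and 3 and none in replicate 2. Or71a, a receptor of the maxillary palp, had rank 10179 at 42 bp from the start of Plp, a centrosome protein gene in whose span it lies.

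Within 1 kb, the best pooled summit with a receptor start as the nearest was at Or10a and Gr10a, which share a start site and are expressed in the same antennal neuron. It ranked 11893 and lay 455 bp upstream, with ranks of 15330 and 13464 in replicates 1 and 3 and none in replicate 2. Ir67c followed with rank 12237 at 233 bp, and replicate 2 ranked it 7202 and replicate 3 13050. Over the 26 pooled summits at receptor genes, the nearest start was that of a receptor in 13 (50%). Counted by gene, 14 of the 24 receptor genes (58.3%) were nearest to 1 of their pooled summits within 1 kb. Of all protein-coding genes with such a summit, 7060 of 8439 (83.7%) were. The closer summits of low rank include 1 at Ir25a, 4 bp from a start site of that gene, with rank 19468.

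**Figure D4:**
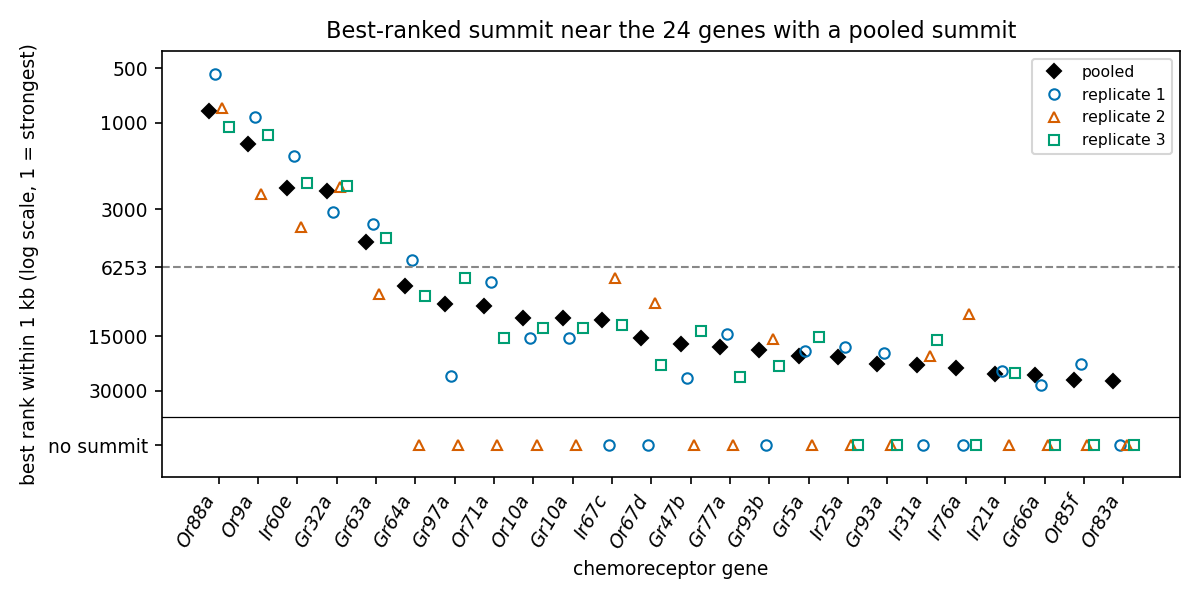
Best rank of a summit within 1 kb (vertical axis, log scale, rank 1 strongest and at the top) for the 24 receptor genes with a pooled summit, in order of the pooled rank. Black diamonds are the pooled list, circles, triangles and squares are replicates 1, 2 and 3, the dashed line is rank 6253, and points at the bottom had no summit. From Gr64a on, no gene has a summit in all 3 replicates.

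The 3 Ir coreceptor genes had no thresholded summit within 1 kb. Ir8a, which serves acid-sensing receptors, had no summit within 1 kb in any list. Ir25a, the most widely used of them, had its pooled summit of rank 19468 and a replicate 1 summit of rank 17209, and none in replicates 2 and 3. For Ir76b, which serves amine and amino acid sensing, the only summit was in replicate 1, of rank 17751. Nearest thresholded summits were at 7050 bp for Ir8a, 2558 bp for Ir25a and 29231 bp for Ir76b. The summit nearest to Ir25a was 1 of the strongest of the set, with rank 39, and belonged to the start of tank. Over the 17 antennal Ir genes, 0 had a thresholded summit within 1 kb and 4 a pooled one, beside 31.3% and 60.5% of all genes and 2.79% and 13.4% of all receptor genes.

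Summits at sugar receptor genes varied between replicates. Of the 9 sugar Gr genes, which are Gr5a, Gr43a, Gr61a and Gr64a to Gr64f, 0 had a thresholded and 2 a pooled summit within 1 kb, again beside 31.3% and 60.5% of all genes. In the relaxed lists of replicates 1, 2 and 3, a summit was near 4, 0 and 2 of the 9, and at equal depth near 1, 0 and 0. Gr5a had pooled rank 19426, again nearest to Tre1 at 37 bp, and ranks of 18029 and 15279 in replicates 1 and 3. The fructose receptor gene Gr43a and the sugar receptor gene Gr61a each had a summit in replicate 1 alone, of ranks 26085 and 24143. Gr64b to Gr64f had none in any list. Bitter receptor genes were mixed. Gr32a had the thresholded summit of rank 2388 described above, Gr66a, needed to taste caffeine, had a pooled summit of rank 24500, and Gr33a, a widely shared bitter receptor, and Gr28b had none in any list.

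Some odorant receptors are already used by the larva. Of 24 Or genes expressed in larval olfactory neurons, 0 had a thresholded and 1 had a pooled summit within 1 kb, where all genes had 31.3% and 60.5% and all receptor genes 2.79% and 13.4%. The pooled summit was at Or83a, with rank 26690 at 906 bp, inside coding sequence. Their median distance to the nearest thresholded summit was 28822 bp. Or42a and Or42b, ester receptors of larva and adult, were 32480 and 38025 bp from it. Or67d, the receptor of the male pheromone cis-vaccenyl acetate, had a pooled summit of rank 15305 at 448 bp upstream, with ranks of 9867 and 21563 in replicates 2 and 3.

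Genes that work beside the receptors but fall outside the naming rule were set next to them. Of 15 such genes, 4 (26.7%) had a thresholded summit within 1 kb, a share near the 31.3% of all genes. Galphaq, a G protein subunit, had rank 2221, ppk29, an ion channel of pheromone-sensing neurons, had 3136, norpA, a phospholipase C, had 3185 and Orco had 5982. At ppk29 the nearest start was that of eEF5, and at Galphaq the starts of Galphaq and CG45086 were equally near. Of 14 genes for transcription factors with roles in sensory neuron fate or receptor choice, 3 had one, which were Xbp1, ey and Dll with best ranks of 547, 4045 and 6151. Of 13 genes of ionotropic glutamate receptors, the relatives of Ir proteins, 0 had one.

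Orco is the partner of every Or protein and had a summit of its own. It lay 734 bp from a start site of Orco, which was the nearest protein-coding start, with a signal of 127, close to the lowest of the thresholded set at 122. Its replicate ranks were 9514, 5277 and 5929, so that replicate 1 placed it outside the first 6253. The windows of 50 bases either side of the summits nearest to Orco, Gr89a and Obp99b are given because these chemosensory genes were themselves the nearest start. They are on the plus strand of dm6 at chr3R:5413090-5413190, chr3R:16497512-16497612 and chr3R:29717089-29717189, with capitals as above.
Orco summit: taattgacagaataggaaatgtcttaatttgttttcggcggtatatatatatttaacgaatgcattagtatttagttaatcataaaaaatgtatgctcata
Gr89a summit: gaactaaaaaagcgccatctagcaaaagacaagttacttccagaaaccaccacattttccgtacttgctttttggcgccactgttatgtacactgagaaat
Obp99b summit: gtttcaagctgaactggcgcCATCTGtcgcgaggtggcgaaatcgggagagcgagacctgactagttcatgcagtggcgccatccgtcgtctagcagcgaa

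Of these windows the Obp99b window has an E-box and the others have neither word. G and C made up 24.8% of the bases at Orco, 40.6% at Gr89a and 58.4% at Obp99b. The Obp99b summit ranked 1370 with a signal of 358.

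DNA words around the receptor starts were counted in 300 bases, from 250 before to 50 after the start, on both strands. CACGTG was in 5 of 179 windows (2.79%), at Gr22b, Ir56b, Or74a, Ir75d and Ir76b, and in 4.20% of all protein-coding genes' windows. CACGCG was in 4 (2.23%), at Gr58a, Gr58b, Or85b and Ir7g, beside 6.12%. The shorter words CACNAG and CANNTG were in 30.2% and 83.2% of receptor windows and in 29.7% and 77.2% of all windows. Any CACGTG is also a CANNTG, so those counts overlap. Median G and C content was 39.3% for the receptors and 38.0% for all genes.

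For core promoter words the result varied by word and family. TATCGATA, the word bound by DREF at many broadly used promoters, was in 1 receptor window (0.559%), that of Gr68a, and in 9.36% of all windows. Over all genes, those with TATCGATA had a thresholded summit within 1 kb in 50.8% of cases, and those without it in 29.3%. TATAAA, the TATA box letters, was in 78.0% of Or, 30% of Gr and 55% of Ir windows and in 45.8% of all windows. At the usual place of a TATA box, 20 to 45 bases before the start, the word was in 15.3% of Or, 3.33% of Gr and 6.67% of Ir genes. It was there in 8.38% of all receptor genes beside 8.81% of all genes, a range chosen after the values were seen. Whether the annotated starts are mapped transcription starts was not examined, for receptor or other genes. Places and distances counted from them carry that limit. With or without TATAAA in the window, 30.9% and 31.7% of all genes had a thresholded summit within 1 kb.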

How the data were processed

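Per the labels, chromatin was sonicated to fragments of 200 to 800 bp. Per the deposited text listings, relaxed peaks were called on dm6 with a control file, and the authors thresholded them by the irreproducible discovery rate. Aligner, caller, read depth and limit are not given in the sources used here. The signal of a peak is the authors' deposited value in an undefined scale and only ranked peaks within a list. The −log10 q-value is as deposited by the authors, and all thresholded peaks share its top value. Lists on dm3 and a control list were not analysed here.

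Summits were joined to start sites of Ensembl release 115 (BDGP 6.54) with Python 3.11.15, numpy 2.4.6 and matplotlib 3.10.9, on arms 2L, 2R, 3L, 3R, 4 and X. The code was tested on simulated summits. Pseudogenes of the 3 families (7) were not members. No set test was made. Members and lists were chosen with earlier results of these data known. Genes named are those with a thresholded summit or a pooled rank up to 10000, the 10 best pooled ranks, coreceptors, carbon dioxide, sugar and bitter receptors, some larval and pheromone receptors, and the neighbours of summits. Others were named after their values were seen.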

Additional observations from a re-analysis of the deposited data

How the results depend on the processing

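The count of 5 receptor genes with a thresholded summit within 1 kb became 2 within 500 bp, 11 within 2 kb, 9 by nearest start at any distance, and 0 when a gene had to be both within 1 kb and nearest. It was 4 or 5 when any overlap of the whole peak counted, in the stronger part of the set, with peaks found in every replicate, or with 1 start per gene. With each replicate set aside in turn, thresholded peaks that overlapped an equal-depth peak in both others gave 4 to 5. Such a filter can keep or lower the count but not raise it, and the thresholded set itself came from all 3 replicates. The pooled relaxed count of 24 became 15 within 500 bp, 44 within 2 kb and 7 in the first 10000 peaks, and it was 17 in the first 20000 and 23 with 1 start per gene. The equal-depth mean of 5 became 23.7 with all peaks, 8 at 2 times that depth, 1.67 within 500 bp and 11 within 2 kb, and 4.5 to 5.5 without a replicate. In all 23 settings the share of receptor genes was below that of all protein-coding genes counted the same way. No paired analysis was possible because there is 1 group. Read depth was not given and no control list was analysed here, so a gene without a peak is a gene without a listed peak and not one shown to be unbound. Embryos of 0 to 16 h were pooled, and the ages within that span cannot be told apart.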
